A study of Mus musculus with 6 samples.

Results

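Open chromatin at 8 genes best known from cytotoxic and innate lymphoid cells was compared in 3 populations of mouse bone marrow. The genes are Prf1, Gzma, Il2rb, Tbx21, Cd247, Tcf7, Lat and Zap70, and their members here are the merged peak regions whose nearest protein-coding gene, within 100 kb, is one of the 8. There were 44 such regions among 65360 regions assigned to a gene and 69171 regions in all. The genes were grouped with earlier results of these lists known, and they were chosen by the peak calls of plasma cells against pc-BMACs in these same lists, so the calls below are a description and carry no test.

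The mice were unimmunised Adig animals on the Balb/c background, in which GFP reports Aire, a regulator that lets the thymus show tissue antigens to developing T cells. The Adig transgene places GFP and the islet antigen IGRP under control of Aire sequences, so GFP marks cells that use this transgene and not Aire protein itself. All 6 libraries came from such mice. The pc-BMACs were sorted as AireGFP+B220-CD138+TACI+, plasma cells as AireGFP-B220-CD138+TACI+, and the sort gate of immature B cells was AireGFP-B220+CD138-TACI-IgM+. ATAC-seq, in which a transposase cuts and tags accessible DNA, gave 2 libraries for each population, and 2000 to 15000 sorted cells went into an experiment. Neither the age of the mice nor the number of mice behind a library is in the labels. Each library is represented by 1 list of peaks without read counts. A region is called in a library when at least 1 of its peaks overlaps it by 1 bp, and a region that was not called is not shown to be closed. The pc-BMAC lists held 38607 and 34070 peaks, the plasma cell lists 37821 and 36723, and those of immature B cells 51643 and 46534, and sequencing depth is unknown. With 2 libraries against 2, the smallest two-sided exact p is 0.333, so differences are set against the spread between the 2 lists of a population.

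The 8 genes act at successive steps of lymphocyte activation and killing. Cytokine signals enter through Il2rb, the beta chain shared by the receptors for interleukin-2 and interleukin-15. Antigen receptor signals pass from Cd247, the zeta chain of the T cell receptor complex that also serves some NK cell receptors, to the kinase Zap70 and then to the membrane scaffold Lat. Tbx21 encodes T-bet, a T-box factor of type 1 immunity that also acts in B cells, and Tcf7 encodes TCF-1, an HMG-box factor of T cell and innate lymphoid development. Prf1 encodes perforin, which forms pores in target membranes, and Gzma encodes granzyme A, a serine protease that enters through them.

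Sequence upstream of the annotated start was at hand for 7 of the 8 genes, and 5 promoters are shown because their calls contrast. A region at the start was called in both plasma cell libraries and no other library (Gzma), in both plasma cell libraries and at least 1 immature B cell library (Prf1, Tbx21), in all 6 libraries (Lat), or in none (Zap70). Tcf7, not shown, had a start region called in both libraries of pc-BMACs and of immature B cells and in 1 plasma cell library. The sequences are from RefSeq (GRCm38.p6, the mm10 build), that is, from the reference strain and not from Balb/c. They run 5′ to 3′ on the strand of the gene and hold only bases upstream of the gene interval. Capitals mark AGGAAG, a core bound by ETS factors, TGTGGT, a core bound by RUNX factors, and CTTTGA, a core bound by TCF factors, on either strand. The T-box core TCACAC was searched too and was not found in the windows of the 7 genes.
Prf1, chr10:61297586-61297750, plus strand: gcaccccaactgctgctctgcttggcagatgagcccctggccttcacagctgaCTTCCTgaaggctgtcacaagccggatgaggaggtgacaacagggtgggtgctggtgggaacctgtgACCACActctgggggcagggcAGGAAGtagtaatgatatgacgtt
Gzma, chr13:113100982-113101231, minus strand: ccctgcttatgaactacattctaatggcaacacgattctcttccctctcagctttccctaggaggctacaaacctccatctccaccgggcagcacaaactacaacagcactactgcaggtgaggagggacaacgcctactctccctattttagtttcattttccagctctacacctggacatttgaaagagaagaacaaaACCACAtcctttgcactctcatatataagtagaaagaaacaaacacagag
Tbx21, chr11:97115332-97115581, minus strand: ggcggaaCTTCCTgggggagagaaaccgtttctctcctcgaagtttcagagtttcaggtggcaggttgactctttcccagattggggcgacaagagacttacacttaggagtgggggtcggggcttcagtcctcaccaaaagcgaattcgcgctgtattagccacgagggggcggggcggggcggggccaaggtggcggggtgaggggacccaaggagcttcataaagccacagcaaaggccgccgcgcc
Lat, chr7:126369706-126369818, minus strand: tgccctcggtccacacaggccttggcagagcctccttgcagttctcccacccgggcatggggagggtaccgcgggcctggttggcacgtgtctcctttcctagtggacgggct
Zap70, chr1:36761548-36761797, plus strand: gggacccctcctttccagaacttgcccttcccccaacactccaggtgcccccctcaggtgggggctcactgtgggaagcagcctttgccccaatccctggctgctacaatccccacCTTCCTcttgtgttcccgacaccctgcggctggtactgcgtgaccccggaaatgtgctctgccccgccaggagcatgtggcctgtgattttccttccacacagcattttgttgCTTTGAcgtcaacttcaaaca

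All 165 bases shown for Prf1 and all 113 for Lat lay in called regions, as did 240 of the 250 for Gzma, 93 of the 250 for Tbx21 and 0 of the 250 for Zap70. In the 250 bases before the start, Prf1 held 2 ETS cores and 1 RUNX core, and Gzma held 1 RUNX core, 50 bases before its start. Tbx21 held 1 ETS core, 243 bases before its start, outside the called region, and Lat held 1 ETS core, 114 bases before its start, inside the called region but in bases of the gene interval that are not printed. Zap70 held 1 ETS and 1 TCF core before its first start. Over all 32851 promoter windows of the table, 29.5% held the ETS core, 14% the RUNX core, 12.3% the T-box core and 13.8% the TCF core in the same 250 bases, so single matches are frequent. These matches are letters in a window and do not show binding.

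The 8 genes had the most called regions in plasma cells. Of the 44 regions, the pc-BMAC libraries had 19 and 16, the plasma cell libraries 33 and 31, and the immature B cell libraries 26 and 22. The means were 17.5 ± 2.12 regions for pc-BMACs, 32 ± 1.41 for plasma cells and 24 ± 2.83 for immature B cells (SD, n = 2 each), and the ranges of the populations did not overlap. As shares of the 44 regions, pc-BMACs had 43.2% and 36.4%, plasma cells 75% and 70.5%, and immature B cells 59.1% and 50%. Over all 65360 assigned regions pc-BMACs had 56.3% and 48.8%, plasma cells 52.8% and 51.3%, and immature B cells 73.8% and 64.9%. A region open in few cells of a population and one open weakly in all of them cannot be told apart in such lists. Immature B cells, which had the longest lists, thus stood below plasma cells at these genes but above them over all regions. The genes were chosen on plasma cell calls, which favours plasma cells in this order, so nothing is read from it.

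**Figure D1:**
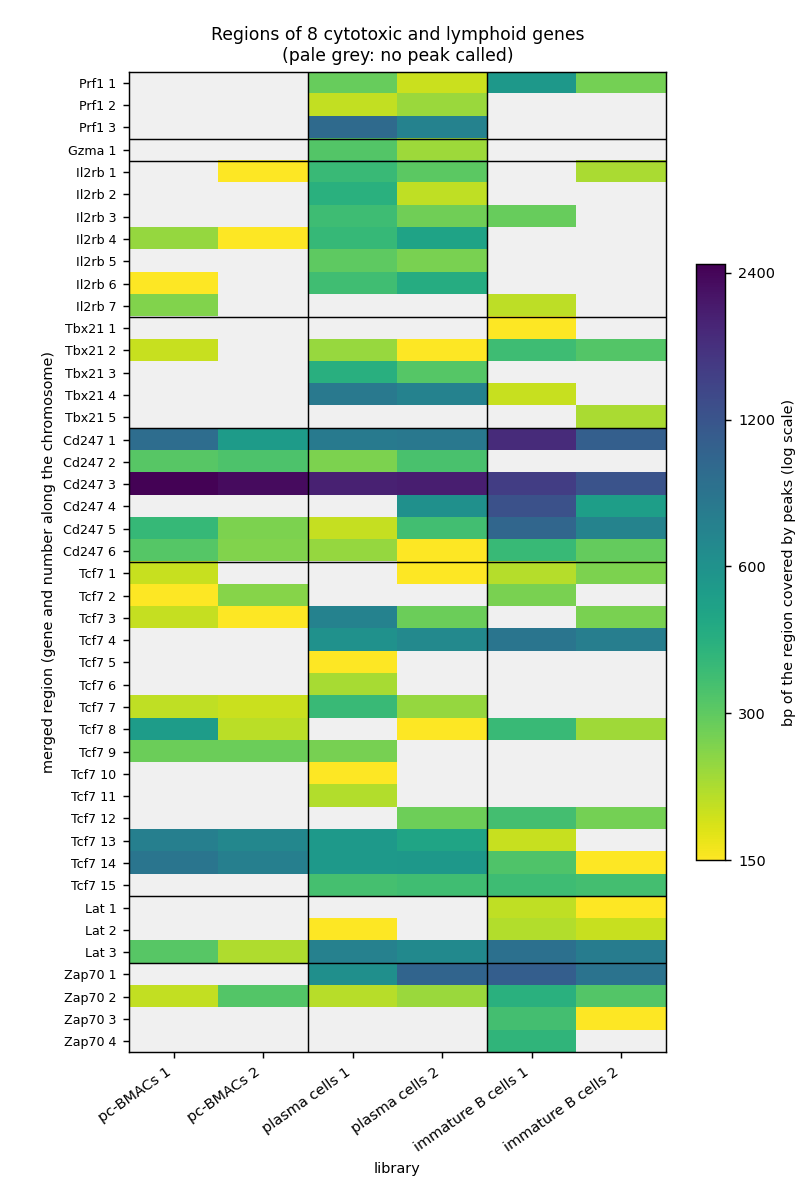
Each row is 1 of the 44 regions, numbered along the chromosome within its gene, and each column a library; colour gives the bp of the region covered by peaks of that library on a log scale, and pale grey means that no peak was called. The pc-BMAC columns are empty at Prf1 and Gzma, while 4 of the 6 Cd247 rows are coloured in all 6 libraries.

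Between pc-BMACs and plasma cells, 39 of the regions were called in at least 1 of the 4 libraries. Only 1 of them had the pc-BMAC pattern, a call in both libraries of pc-BMACs with none in plasma cells, against 8.48% of all assigned regions. The plasma cell pattern, a call in both libraries of plasma cells with none in pc-BMACs, held for 12 of the 39 (30.8%), against 8.99% of all assigned regions. The 8 genes were selected on this contrast, and nothing is read from it. The 12 regions were spread over 6 genes, 3 at Prf1, 3 at Il2rb, 2 at Tbx21, 2 at Tcf7, 1 at Gzma and 1 at Zap70. Cd247 and Lat had 0. Leaving out any of the 4 libraries gave 13 to 17 such regions, while the share of all assigned regions went to 9.99% to 14.2%. The count of the pc-BMAC pattern was 2 in place of 1 without pc-BMACs 2, without plasma cells 1 or without plasma cells 2. In the 1 pair whose descriptions share an R number, pc-BMACs 2 and plasma cells 1, the counts of 35 regions were 2 for the pc-BMAC library and 19 for the plasma cell library, against 15.4% and 21.8% of all assigned regions called in either. The labels do not explain this number.

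**Figure D2:**
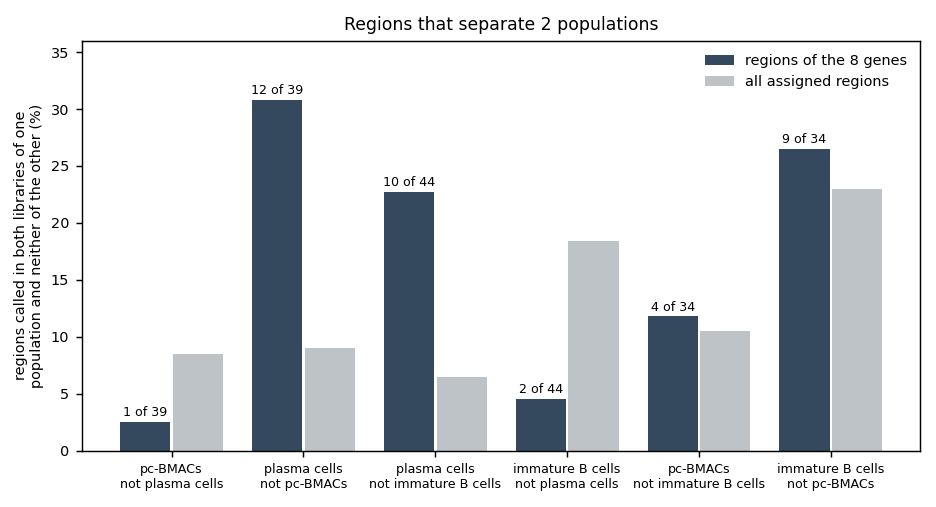
Bars give the percentage of regions called in both libraries of the first-named population and neither of the second, for the 8 genes (dark, with counts) and for all assigned regions (grey); each denominator is the regions called in at least 1 of the 4 libraries. The widest gaps are at plasma cells against pc-BMACs, 30.8% and 8.99%, and at plasma cells against immature B cells, 22.7% and 6.46%. Choosing the genes on plasma cell calls favours both gaps.

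These 12 regions were also looked up in the immature B cell lists, as a description. They come from the contrast used to choose the genes, so nothing is read from their shares. Of the 12 regions, both immature B cell lists had 4 (33.3%), 1 of these lists had another 2, and 6 were in neither list (50%). Over all 4325 assigned regions with this pattern, both immature B cell lists had 70.7% and neither had 22.8%. The 6 regions called in both plasma cell libraries and in no other library were 2 at Prf1, 2 at Il2rb, 1 at Gzma and 1 at Tbx21. The 4 regions shared with both immature B cell libraries were 2 at Tcf7, 1 at Prf1 and 1 at Zap70.

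Against immature B cells, 10 of 44 regions were called in both plasma cell libraries and neither immature B cell library (22.7%, against 6.46% of all assigned regions). The opposite pattern held for 2 of the 44 (4.55%, against 18.4% of all assigned regions). By gene, 6 of the 8 had more regions of the plasma cell pattern, against 9.47% of all genes with a region, and 2 had more of the immature B cell pattern, against 33.8%. The 10 comprised 4 regions of Il2rb, 2 of Prf1 and 1 each of Gzma, Tbx21, Cd247 and Tcf7, while the 2 lay at Lat and Zap70. Leaving out 1 library gave 10 to 15 regions of the plasma cell pattern, and 6 in place of 2 of the immature B cell pattern without immature B cells 2 or without plasma cells 2. The shares of all assigned regions rose as well, to 7.01% to 10.9% for the plasma cell pattern, and to 30.5% without immature B cells 2 and 22.5% without plasma cells 2 for the immature B cell pattern. The comparison shares its plasma cell libraries with the preceding one, so both rest on the same plasma cell calls. Choosing the genes on those calls favours the plasma cell pattern here as well, and nothing is read from it. In the pair that shares an R number, plasma cells 2 and immature B cells 2, the counts of 35 regions were 13 for the plasma cell library and 4 for the immature B cell library, against 12.6% and 30.8% of all assigned regions called in either.

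Between pc-BMACs and immature B cells the 8 genes were close to the background. Both pc-BMAC libraries and neither immature B cell library had 4 of 34 regions (11.8%, against 10.5% of all assigned regions), 2 at Tcf7, 1 at Il2rb and 1 at Cd247. Both immature B cell libraries and neither pc-BMAC library had 9 of 34 (26.5%, against 23% of all assigned regions), 3 at Tcf7, 2 at Lat, 2 at Zap70, 1 at Prf1 and 1 at Cd247. In the pair that shares an R number, pc-BMACs 1 and immature B cells 1, the counts of 32 regions were 6 and 13, against 18% and 37.5%. A share near the background is no result about these genes.

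The effector genes come first. Prf1 (chr10:61297751-61304684) had 3 regions, all called in both plasma cell libraries and none in pc-BMACs. The region across its start (chr10:61297318-61297872), which holds the promoter shown above, had 0 and 0 bp covered by peaks in pc-BMACs, 289 and 187 bp in plasma cells, and 555 and 271 bp in immature B cells. Peak widths overlapped between plasma cells and immature B cells there. A second region inside the gene (chr10:61301072-61301350) was covered over 195 and 229 bp in plasma cells alone. The remaining one, 3494 bp beyond the far end of the gene (chr10:61308179-61309167), was the widest of the 3, with 949 and 721 bp in plasma cells and no peak elsewhere. The next gene on that side, Pald1, lay 10488 bp farther on.

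Gzma (chr13:113093824-113100981) had 1 region, across its start (chr13:113100902-113101221). It was covered over 320 and 227 bp in plasma cells and had no peak in pc-BMACs or immature B cells. Gzma lies within the interval of Cdc20b, which the region overlaps as well. It was given to Gzma because the end of Gzma is nearer to its middle. With peaks of at least 300 bp only, its count in plasma cells against pc-BMACs was 0.

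Il2rb (chr15:78479256-78511621) had 7 regions, of which pc-BMACs had 3 and 2, plasma cells 6 and 6, and immature B cells 2 and 1. Plasma cells had the same 6 in both libraries. In pc-BMACs 1 of 4 regions called in either library was called in both, and in immature B cells 0 of 3. The regions called in plasma cells alone were a pair inside the gene, chr15:78493450-78493867 with 418 and 197 bp and chr15:78510775-78511074 with 300 and 264 bp. Another inside the gene, chr15:78494888-78495375, had 359 and 275 bp in plasma cells and 287 bp in immature B cells 1.

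The only Il2rb region called in both pc-BMAC libraries was chr15:78510106-78510594, 235 and 150 bp in pc-BMACs and 381 and 489 bp in plasma cells, with no peak in immature B cells. Beyond the gene, 309 bp outside it, chr15:78511931-78512369 was covered over 150 bp in pc-BMACs 1, with no peak in pc-BMACs 2, and over 355 and 439 bp in plasma cells. The outermost region on that side, chr15:78514640-78514895, went the other way: 256 bp in pc-BMACs 1, none in plasma cells and 198 bp in immature B cells 1. At the other end, 3345 bp outside the gene, chr15:78475532-78475910 had 150 bp in pc-BMACs 2, 371 and 305 bp in plasma cells and 215 bp in immature B cells 2. So Il2rb was not without called regions in pc-BMACs, but the calls there were mostly of 1 library and narrower.

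**Figure D3:**
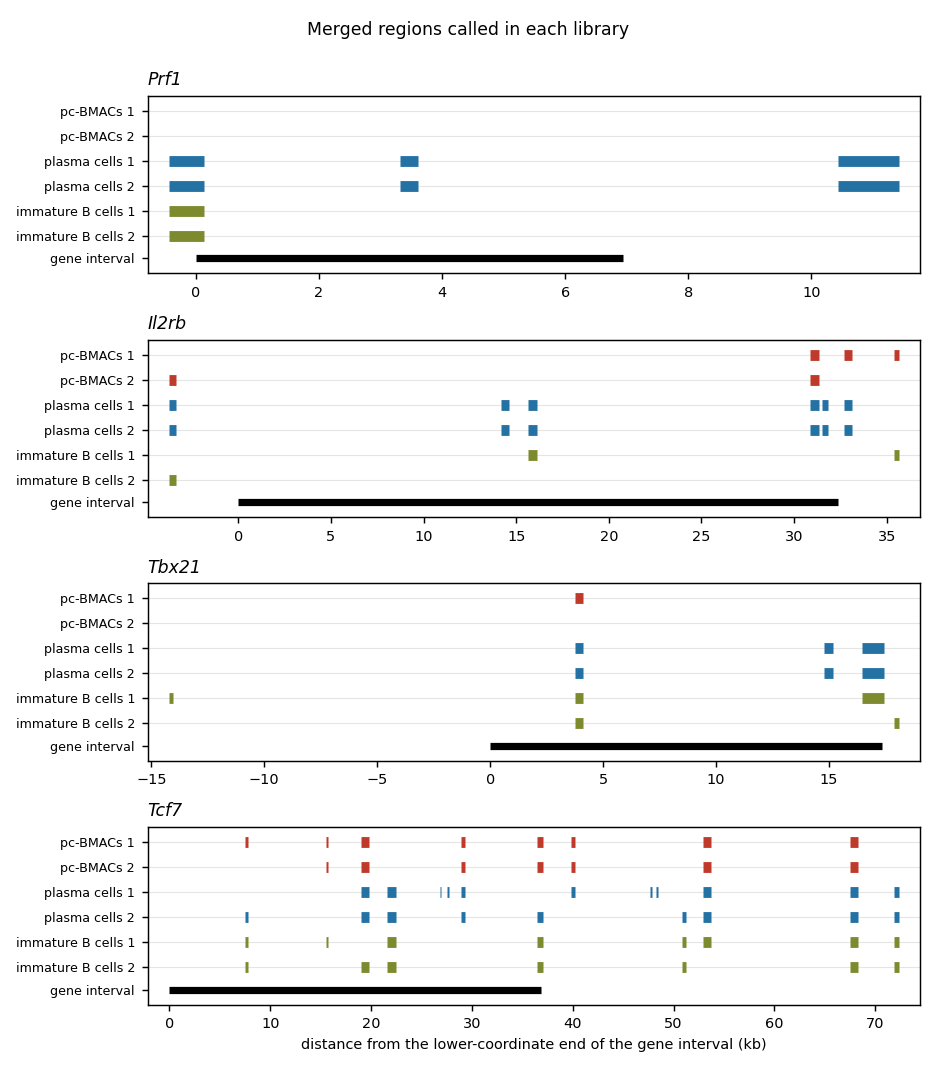
Each panel is a gene, with the distance from the lower-coordinate end of its interval in kb on the x axis and 1 row per library; blocks are merged regions called in that library, drawn at the width of the merged region and not of its peaks, and the black bar is the gene interval. Prf1 has no block in pc-BMACs, Il2rb and Tbx21 have few, and Tcf7 has 8 and 7.

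Of the transcription factors, Tbx21 (chr11:97098007-97115331) had 5 regions. Of these, pc-BMACs had 1 and 0, plasma cells 3 and 3, and immature B cells 3 and 2. The region across its start (chr11:97114470-97115424) was covered over 803 and 717 bp in plasma cells and 189 bp in immature B cells 1, with no peak in the other 3 libraries. A region inside the gene, chr11:97112772-97113194, had 423 and 316 bp in plasma cells and no peak elsewhere. The plasma cell calls were thus the widest at the start of the gene. The region called in most libraries, chr11:97101742-97102126, had 189 bp in pc-BMACs 1, 232 and 150 bp in plasma cells, and 361 and 320 bp in immature B cells. The other 2 were each called in 1 immature B cell library.

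Tcf7 (chr11:52246527-52283383) had 15 regions, the most of the 8 genes, and the weakest agreement between the plasma cell libraries. The pc-BMAC lists called 8 and 7 of them, the plasma cell lists 11 and 9, and those of immature B cells 8 and 7. Of the regions called in either library of a population, both had 7 of 8 for pc-BMACs, 6 of 14 for plasma cells and 6 of 9 for immature B cells. Plasma cells 1 alone of the 6 libraries had 4 narrow regions of 150 to 216 bp. The highest count, that of plasma cells 1, includes these 4.

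Single Tcf7 regions ran in different directions. Inside the gene, chr11:52268136-52268970 had no peak in pc-BMACs, 600 and 663 bp in plasma cells, and 835 and 749 bp in immature B cells, and chr11:52318404-52318827, 35020 bp outside the gene, had none in pc-BMACs, 344 and 355 bp in plasma cells, and 361 and 347 bp in immature B cells. Both were therefore shared by plasma cells and immature B cells and absent from the pc-BMAC lists. The region across the start, chr11:52282980-52283543, had 526 and 201 bp in pc-BMACs, 150 bp in plasma cells 2, and 371 and 225 bp in immature B cells, with no peak in plasma cells 1. The 1 region of the pc-BMAC pattern against plasma cells, chr11:52262016-52262294, had 150 and 250 bp in pc-BMACs and 263 bp in immature B cells 1.

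A pair of Tcf7 regions upstream of the gene had their widest peaks in pc-BMACs. At chr11:52299441-52300195 peaks covered 740 and 677 bp in pc-BMACs, 553 and 481 bp in plasma cells, and 189 bp in immature B cells 1. At chr11:52313995-52314831 they covered 834 and 744 bp in pc-BMACs, 546 and 557 bp in plasma cells, and 324 and 150 bp in immature B cells. In both regions the widths of the populations did not overlap. The share of all assigned regions that separate in this way was not counted. Nothing is therefore read from such a separation, here or at the genes below. Over all assigned regions called in a library, the median covered length was also greatest in pc-BMACs, 545 and 525 bp, against 437 and 446 bp in plasma cells and 470 and 403 bp in immature B cells. Peak width also depends on depth and on how peaks were called, neither of which is known.

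Of the genes of antigen receptor signalling, Zap70 had 1 region of the plasma cell pattern against pc-BMACs, and Cd247 and Lat had 0. Cd247 (chr1:165779952-165871153) had 6 regions, all overlapping the gene, and pc-BMACs had 5 and 5 of them, plasma cells 5 and 6, and immature B cells 5 and 5. Calls in all 6 libraries held for 4 of them. The widest, chr1:165843407-165845867, had 2461 and 2309 bp in pc-BMACs, 1931 and 1978 bp in plasma cells, and 1493 and 1222 bp in immature B cells. The widths did not overlap between populations here either, and pc-BMACs had the widest, as they did over all assigned regions.

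The other 2 Cd247 regions had opposite patterns. At chr1:165811234-165811619 there were 312 and 328 bp in pc-BMACs, 262 and 338 bp in plasma cells, and no peak in immature B cells. At chr1:165848539-165849777 there was no peak in pc-BMACs or plasma cells 1, 607 bp in plasma cells 2, and 1239 and 516 bp in immature B cells. Cd247 thus had 1 region that set both CD138+ populations apart from immature B cells.

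Lat (chr7:126363827-126369705) had 3 regions, of which pc-BMACs had 1 and 1, plasma cells 2 and 1, and immature B cells 3 and 3. The region across its start, chr7:126369083-126369993, was called in every library, over 313 and 209 bp in pc-BMACs, 725 and 661 bp in plasma cells, and 886 and 765 bp in immature B cells. Its peaks were narrowest in pc-BMACs, with no overlap between populations. It ended 66 bp from Spns1, so its calls cannot be given to Lat alone. The other 2, at 22660 and 23215 bp from the gene, were each called in immature B cells 1 and 2, and 1 of them in plasma cells 1.

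Zap70 (chr1:36761798-36782821) had 4 regions, of which pc-BMACs had 1 and 1, plasma cells 2 and 2, and immature B cells 4 and 3. No region of it overlapped any of its 3 promoter windows in RefSeq. The region inside the gene, chr1:36766405-36767606, had no peak in pc-BMACs, 616 and 1008 bp in plasma cells, and 1081 and 858 bp in immature B cells. It was shared by plasma cells and immature B cells. The region called in all 6 libraries, chr1:36784639-36785071, had 194 and 318 bp in pc-BMACs, 202 and 228 bp in plasma cells, and 420 and 319 bp in immature B cells.

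Replicate lists agreed on most regions of these genes. Of the regions called in either library, both libraries had 15 of 20 in pc-BMACs (75%, against 76.9% of all assigned regions), 27 of 37 in plasma cells (73%, against 76.8%) and 19 of 29 in immature B cells (65.5%, against 77.5%). The plasma cell libraries agreed on every region that either of them called at Prf1, Gzma, Il2rb, Tbx21 and Zap70. Their 10 disagreements were 8 regions of Tcf7, 1 of Cd247 and 1 of Lat. Regions called in 1 library of a population were narrow: their median covered length was 189 bp for pc-BMACs, 179 bp for plasma cells and 215 bp for immature B cells. In regions called in both libraries it was 296.5 bp in pc-BMACs, 357 bp in plasma cells and 361 bp in immature B cells.

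Most of the regions lay in or across their genes. Of the 44 regions, 26 (59.1%) overlapped their gene, against 67.8% of all assigned regions, and their widths had a median of 392 bp, against 435 bp. Called in all 6 libraries were 7 (15.9%), against 30.6% of all assigned regions, and called in a single library were 7 (15.9%), against 21.9%. The farthest region, of Tcf7, lay 35020 bp from its gene, well inside the 100 kb limit. A region that overlaps both Cd247 and Pou2f1, chr1:165865221-165865415, lay just outside the rule: it was given to Pou2f1 and was called in immature B cells 1 alone.

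Other genes of the same pathways were counted from lists that, except for B cell receptor signalling, hold some of the 8 genes as well. These lists were chosen with earlier results of these data known, so their counts are a description. Of 29 genes of innate lymphoid regulators and cytokine receptors with a region, 2 had more regions in the pc-BMAC pattern and 15 in the plasma cell pattern. The same held for 2 and 8 of 25 cytotoxic granule and NK genes, for 3 and 11 of 30 T cell receptor signalling genes, and for 5 and 5 of 18 B cell receptor signalling genes. Over all 15276 genes with a region the shares were 14.3% in the pc-BMAC direction and 15.5% in the plasma cell direction. Without the 8 genes the counts were 2 and 12 of 26, 2 and 6 of 23, and 3 and 10 of 27 for the first 3 lists. The median net number per gene, plasma cells minus pc-BMACs, was 1 for the innate lymphoid list and 0 for the other 3 lists and for all genes.

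As a share of regions, the innate lymphoid list had 5.15% in the pc-BMAC pattern and 20.1% in the plasma cell pattern, the cytotoxic list 5.06% and 17.7%, the T cell receptor list 7.1% and 15.3%, and the B cell receptor list 8.98% and 7.19%. Against the 8.48% and 8.99% of all assigned regions, the first 3 lists lay on the plasma cell side, and the B cell receptor list lay near the background. Part of this was fixed by the choice of the 8 genes on the same contrast. Without them the shares were 5.33% and 18.9% in the innate lymphoid list, 5.33% and 13.3% in the cytotoxic list, and 7.51% and 15.6% in the T cell receptor list. Because the lists too were chosen with earlier results known, taking out the 8 genes does not free these shares from selection. The genes with most regions in the plasma cell pattern were Runx3 (7 of 28), Il21r, Il7r and Lef1 (3 each) beside Il2rb in the first list, Ifng (4 of 15) in the second, and Fyn (5 of 28), Cd2 (4 of 15) and Prkcq (3 of 19) in the third. Runx3 encodes a RUNX factor of cytotoxic lymphocytes, and Ifng the cytokine interferon gamma. In the pc-BMAC pattern Runx3 had 3 regions. At Ifng plasma cells had 5 and 6 called regions and immature B cells 15 and 14. At Fyn these counts were 18 and 14 against 22 and 20, and at Cd2 6 and 6 against 11 and 11. At Prkcq they were 7 and 8 against 18 and 15, and at Il7r 3 and 4 against 8 and 6. At Il21r they were 5 and 5 against 6 and 7. The ranges overlapped at Runx3 (18 and 15 against 16 and 16) and Lef1 (9 and 12 against 12 and 10). Il2rb went the other way (6 and 6 against 2 and 1).

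Set against immature B cells, all 4 lists had more regions in the immature B cell pattern than in the plasma cell pattern. So did all assigned regions. The 8 genes, chosen on plasma cell calls, went the other way. The plasma cell and immature B cell patterns held 9 and 31 regions of the cytotoxic list, 18 and 55 of the T cell receptor list, 25 and 41 of the innate lymphoid list, and 8 and 35 of the B cell receptor list. As shares, the plasma cell pattern made up 8.26%, 7.63%, 10.3% and 4.28% of their regions, beside 22.7% for the 8 genes and 6.46% for all assigned regions. Without the 8 genes it made up 5.71% of the cytotoxic list, 7.62% of the T cell receptor list and 8.8% of the innate lymphoid list. The immature B cell pattern made up 28.4%, 23.3%, 16.9% and 18.7%, beside 4.55% for the 8 genes and 18.4% for all. Without the 8 genes it made up 29.5%, 23.8% and 19% of the same 3 lists. Against pc-BMACs, the immature B cell pattern made up 37.7%, 33.3%, 30.1% and 22% of the 4 lists, beside 23% of all assigned regions. The pc-BMAC pattern there made up 3.77%, 8.33%, 11.4% and 7.8%, beside 10.5%.

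Markers of the cell types that the sort could hold were read from the same lists, and their part in the results was not tested. As shares of regions, the T cell list had 4% in the pc-BMAC pattern and 24% in the plasma cell pattern against each other (1 and 6 of 25), the B cell list 1.39% and 16.7% (1 and 12 of 72), and the monocyte and neutrophil list 0% and 18.2% (0 and 2 of 11). These 3 lists lay on the plasma cell side of the background, 8.48% and 8.99%, and so did the 8 genes (2.56% and 30.8%). The erythroid list had 8.33% and 16.7% (1 and 2 of 12), so its plasma cell pattern also lay above the background and its pc-BMAC pattern near it. The NK list had 5.56% in each pattern (1 and 1 of 18), the innate lymphoid list 15% and 0% (3 and 0 of 20). The plasma cell list had 10.7% and 6.67% (8 and 5 of 75). Of 13 T cell markers, pc-BMACs had a called region at 8 and 8, plasma cells at 9 and 9, and immature B cells at 8 and 8. For 11 NK cell markers pc-BMACs had one at 5 and 4, plasma cells at 5 and 6, and immature B cells at 7 and 7. For 9 innate lymphoid markers the counts were 4 and 4 for pc-BMACs, 4 and 6 for plasma cells and 7 and 7 for immature B cells. No region was called in any library at Ncr1, Nkg7, Gzmb or Klrc1, which mark NK cells, or at Cd8a, Bcl11b and Themis, which mark T cells. Cd3d had 1 region, called in all 6 libraries, and at Cd4 pc-BMACs had 2 and 2, plasma cells 2 and 2, and immature B cells 1 and 0. The counts of pc-BMACs and plasma cells were equal at Cd3g (1 in each library), Lck (3 in each) and Cd8b1 (none). Cd5 had 4 and 3 regions for pc-BMACs against 3 and 4 for plasma cells, and Cd3e 2 and 0 against 1 and 1. Only Thy1, Trat1 and Cd6 had fewer regions in both pc-BMAC libraries than in either plasma cell library. At Thy1 pc-BMACs had 1 and 1, plasma cells 2 and 3, and immature B cells 4 and 3. At Trat1 pc-BMACs had 0 and 1, plasma cells 2 and 2, and immature B cells 0 and 1, and at Cd6 pc-BMACs had 3 and 3, plasma cells 4 and 4, and immature B cells 6 and 5.

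**Figure D4:**
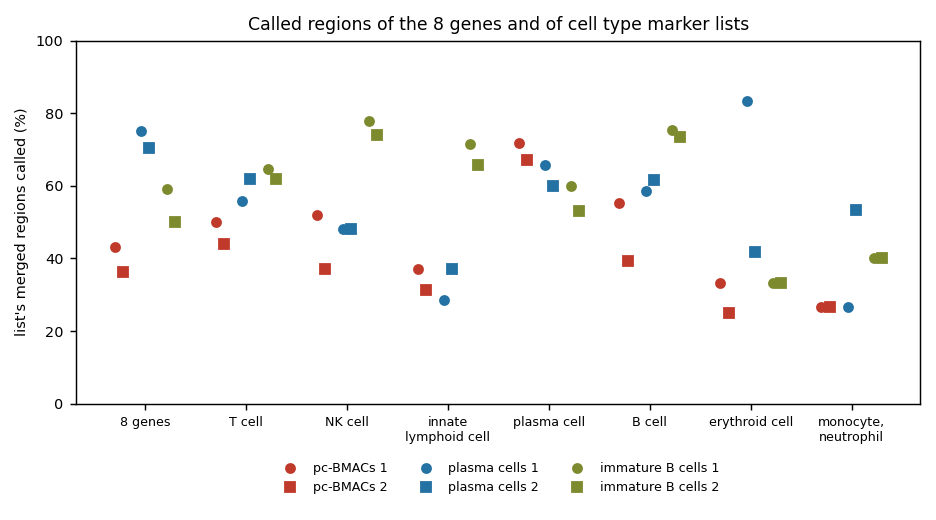
Points give the percentage of each list's merged regions that were called in a library, with circles for the first and squares for the second library of a population. For the 8 genes plasma cells lie highest, while for the NK and innate lymphoid markers immature B cells do, and in the erythroid list plasma cells 1 stands apart from plasma cells 2.

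Markers outside the lymphoid lineages were not equal between the libraries. All 7 erythroid markers had a called region in plasma cells 1, while plasma cells 2 had one at 3, pc-BMACs at 3 and 2, and immature B cells at 3 and 3. Of 8 monocyte and neutrophil markers, pc-BMACs had a called region at 3 and 3, plasma cells at 4 and 5, and immature B cells at 4 and 3. The 2 regions of the plasma cell pattern against pc-BMACs lay at S100a8 and S100a9, neutrophil genes, and the S100a8 region was in no immature B cell list. At Cd14 pc-BMACs had 2 and 1 regions, plasma cells 0 and 1, and immature B cells 1 and 0. Without plasma cells 1 the plasma cell pattern against pc-BMACs counted 14 regions of the 8 genes, and without plasma cells 2 it counted 17. The shares of all assigned regions were 14.2% and 14.1%. Leaving out a library can only keep or raise this count, and whether the erythroid calls bear on it was not tested. All 9 plasma cell markers had a called region in both pc-BMAC and both plasma cell libraries, and immature B cells had one at 9 and 8, so this count did not separate the populations. Of 9 B cell markers, pc-BMACs had a called region at 9 and 7, plasma cells at 9 and 9, and immature B cells at 9 and 9.

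Genes elsewhere in the genome had similar profiles. By Euclidean distance between the shares of regions called in the 6 libraries, over 7718 genes with at least 3 regions, the 5 nearest to the pooled 8 genes were Ppm1h (0.124), Ranbp10 (0.134), Acsf2 (0.161), Dusp4 (0.162) and Bicdl1 (0.165). Ppm1h had 12 regions, of which pc-BMACs had 41.7% and 25%, plasma cells 75% and 75%, and immature B cells 58.3% and 50%. Such shares rest on few regions per gene.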

How the data were processed

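Each of the 6 libraries has 1 deposited list of peaks, whose 5 columns are chromosome, start, end, a name and a score. The score in the deposited lists is 1000 in every row and was not used, and the starts and ends that the authors deposited (counted from 0) are the only measurement. Per the submitters' processing notes, the build was mm10 and the tools were bedtools, HOMER 4.10 and Bowtie2 2.3.3, with no role stated; how peaks were called is not given in the sources used here. Depth is unknown, so no interval that needs it was computed.

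Peaks of the 6 lists were merged at 1 bp overlap (Python 3.11.15, pandas 2.3.3, NumPy 2.4.6), and each region was given to the nearest of 21896 protein-coding gene intervals of the RefSeq table for GRCm38.p6 within 100 kb. Of genes at equal distance, the one with an end nearest to the middle of the region was taken. The merging and assignment were checked on simulated intervals. Coordinates are printed counted from 1. No test was run: groups hold 2 libraries, and the 8 genes and all lists were chosen with earlier results of these data known. The rule for other named genes took at most 5 per list and direction with most regions in a pattern, and the 5 genes nearest in profile. A gene of the innate lymphoid list was not matched in the table, and some genes of the lists are not reported here by name. The alternatives were a 50% cover of the region, lists of equal length (the widest 34070 peaks), peaks of at least 300 bp, a limit of 10 kb, the pair of libraries that share an R number, and leaving out each library.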

Additional observations from a re-analysis of the deposited data

How the results depend on the processing

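The 12 regions in both plasma cell libraries and neither pc-BMAC library were 8 to 14 under the 4 changes of the peak or distance rule, 19 in the pair sharing an R number, and 13 to 17 with 1 library left out. In the same order, the shares of all assigned regions were 6.35% to 8.53%, 21.8%, and 9.99% to 14.2%. The pc-BMAC pattern against plasma cells (1 region) had 0 with lists of equal length or peaks of at least 300 bp, 2 in the pair sharing an R number, and 1 to 2 with 1 library left out. Of all assigned regions, 9.45% had this pattern with lists of equal length and 10.2% with peaks of at least 300 bp. The pair gave 15.4%, and leaving out 1 library 10.2% to 17.5%. The plasma cell pattern against immature B cells (10) was 7 to 15 under all alternatives run, beside 5.36% to 12.6% of all assigned regions. The immature B cell pattern against plasma cells (2) had 0 with lists of equal length, 1 within 10 kb, 4 in the pair sharing an R number, and 3 to 6 with 1 library left out. The matching shares of all assigned regions were 9.74%, 17.1%, 30.8%, and 21.5% to 30.5%. The pc-BMAC pattern against immature B cells (4) had 2 of 19 with peaks of at least 300 bp, beside 10.5% of all assigned regions. The opposite pattern (9) had 5 of 19 with these peaks, beside 18.9%, and 5 of 27 within 10 kb, beside 20.8%. The cause of these shifts was not tested.

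Regions called per library moved more than the spread between replicates in 20 of 24 recounts. With 50% cover they numbered 12 and 8 for pc-BMACs, 30 and 22 for plasma cells, and 23 and 15 for immature B cells. With lists of equal length they numbered 12 and 16 for pc-BMACs, 30 and 31 for plasma cells, and 17 and 15 for immature B cells. With peaks of at least 300 bp they numbered 9 and 6 for pc-BMACs, 19 and 17 for plasma cells, and 17 and 10 for immature B cells. Within 10 kb they numbered 17 and 14 for pc-BMACs, 27 and 27 for plasma cells, and 19 and 17 for immature B cells. Plasma cells had the highest mean under each of the 4, but the ranges of plasma cells and immature B cells overlapped with 50% cover and met at 17 with peaks of at least 300 bp. Those of pc-BMACs and immature B cells overlapped with lists of equal length and met at 17 within 10 kb. Agreement of replicates with peaks of at least 300 bp was 50% in pc-BMACs and 56.5% in plasma cells.

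Of 72 recounts of single genes, as the net number of regions, plasma cells minus pc-BMACs, 13 moved and 0 changed sign. With peaks of at least 300 bp Gzma and Zap70 had 0 in place of 1 and Prf1 1 in place of 3, and within 10 kb Tcf7 had 0 in place of 1. Tcf7 had 4 and Lat 1 in place of 0 without plasma cells 2 or in the pair sharing an R number, and Cd247 had 1 in place of 0 without plasma cells 1. No paired analysis was possible because the results come from no test; the R numbers join only 1 pair of libraries in each comparison, counted above. Without depths, a region missing from a list cannot be told apart from one that was sequenced too thinly.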
